A study of Homo sapiens with 4 samples.

Results

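The genes examined were 8 components of JAK-STAT signalling in MV4-11 cells, namely the transcription factors STAT2, STAT3, STAT5A, STAT5B and STAT6 and the tyrosine kinases JAK1, JAK2 and TYK2. They were taken by symbol, and every RefSeq row bearing one of these symbols was kept, which gave 16 rows for 8 of the 16490 genes in the table. MV4-11 is a human myelomonocytic AML cell line that carries an MLL fusion and an internal tandem duplication of the receptor kinase FLT3. Cells had been infected with a pLKO.1-puro lentivirus, selected with puromycin, and carried either a control hairpin (sh-NC, 2 libraries) or the hairpin sh-CEBPG#3 against CEBPG (2 libraries). A single CEBPG hairpin was sequenced, so an effect of the hairpin itself and an effect of CEBPG loss cannot be told apart, and no label says that replicates were infected or cultured separately. P-values therefore measure the spread between these libraries, which may be technical.

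Cytokine receptors have no kinase activity of their own and rely on JAK kinases bound to their tails. A cytokine brings the receptor chains together, the JAK kinases phosphorylate the receptor and then the STAT proteins, and the STAT dimers enter the nucleus and activate target genes. In myeloid cells the pathway carries the signals of interferons, interleukins and colony-stimulating factors, and FLT3 with an internal tandem duplication is known to activate STAT5 as well. All these steps are controlled mainly by phosphorylation, which RNA-seq does not measure.

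The deposited unit is FPKM, a read density normalised to transcript length and to mapped reads, summed here over the RefSeq rows of a gene. Because of the scaling to length, levels of different genes could be set side by side. Fold changes were computed on the log2(FPKM + 1) scale, which understates changes of low genes, and a gene was called when limma's adjusted p was under 0.05. The 4 libraries had FPKM totals between 364353 and 389766. Across genes, Pearson's r was 0.993 and 0.994 between libraries of one group and 0.962 to 0.964 across groups. CEBPG itself fell from 30.4 and 33.6 FPKM in the controls to 19.2 and 17.1 FPKM. Of 9 myeloid markers 8 reached a mean of 0.5 FPKM, and their summed level was 1089 to 1185 FPKM in sh-NC and 3613 to 3788 FPKM in sh-CEBPG#3 libraries, with 6 markers called higher and 1 lower. Most of that difference lay in LYZ, without which the sums were 523 to 575 FPKM and 631 to 662 FPKM. All 5 markers of MLL-rearranged AML were expressed, with sums of 155 to 169 FPKM in sh-NC and 136 to 148 FPKM in sh-CEBPG#3 libraries and 3 called lower. No value was found for the 5 T cell and 5 erythroid markers. Of 3 B cell markers CD79A passed, with at most 1.33 FPKM, and was not called. KRT8 and KRT18, the epithelial markers that passed, summed to 12.1 to 12.9 FPKM in sh-NC and 14.8 to 16 FPKM in sh-CEBPG#3 libraries. Of these, 1 was called higher, and without KRT18 the sums were 2.29 to 2.35 FPKM and 6.19 to 6.26 FPKM. Whether the shift in myeloid markers contributes to the results below was not tested.

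Upon CEBPG knockdown STAT2 rose 3-fold, STAT3 and JAK2 rose slightly, and STAT5B and STAT6 fell slightly. STAT5A, JAK1 and TYK2 did not pass the test. Thus 5 of the 8 genes were called, 3 higher and 2 lower, whereas 42.2% of all 12142 genes tested were called, 18.5% higher and 23.8% lower. The median log2 fold change was 0.036 over the 8 genes and -0.038 over all genes tested, and turned to -0.036 over the 8 genes without sh-NC replicate 1. The groups did not overlap for the same 5 genes, against 71.7% of all genes. The study's cutoffs (unadjusted p under 0.05 and a change beyond 2-fold) were applied here to limma in place of the authors' DESeq2. By them STAT2 alone passed, against 3.41% of all genes, a share that is not the study's own count. All 8 genes passed the filter of a mean of 0.5 FPKM.

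**Figure D1:**
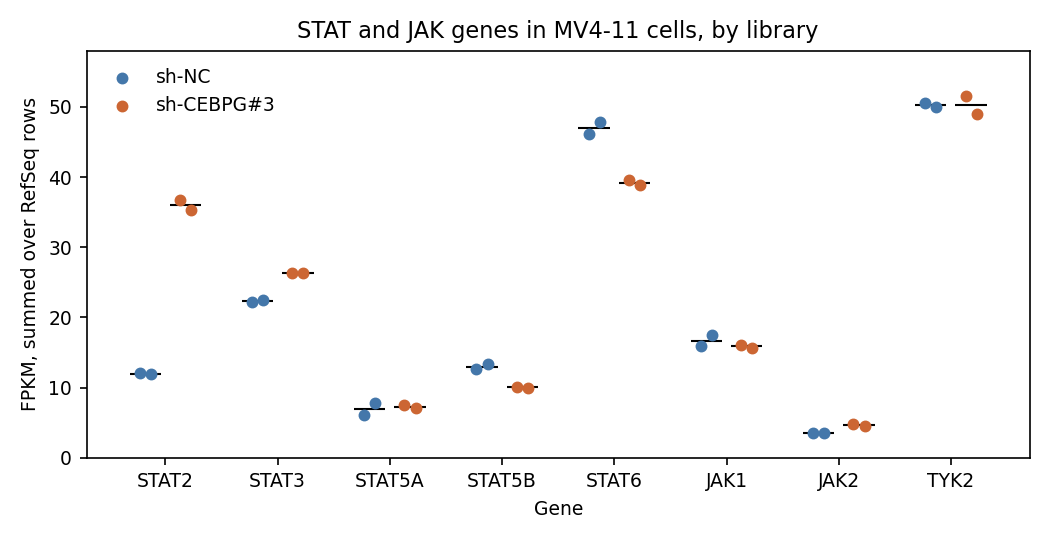
FPKM of each gene (y axis, linear, summed over its RefSeq rows) in every library, with sh-NC in blue and sh-CEBPG#3 in orange; each point is a library and each black line a group mean of 2 libraries. STAT2 moved from about the level of STAT5B to above STAT3, while TYK2 stayed near 50 FPKM in all 4 libraries.

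STAT2 is the STAT factor of type I and type III interferon signalling, where it joins IRF9 in the complex ISGF3. The gene lies on the minus strand of chromosome 12 at chr12:56341597-56360107 (GRCh38.p14). STAT2 had 12.1 and 11.9 FPKM in the controls and 36.8 and 35.3 FPKM after knockdown. Both knockdown libraries were far above both controls, and the libraries of each group lay close together. The means were 12.0 ± 0.161 FPKM and 36 ± 1.08 FPKM (SD, n = 2 each). On the log2 scale this was a difference of 1.51 (standard error 0.08, adjusted p = 4.61e-07 in limma), which ranked 133 by size among the 12142 genes tested. Leaving out 1 library at a time gave 1.48 to 1.54.

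STAT2 was listed by 2 RefSeq rows. The main one, NM_005419, had 8.77 and 11.5 FPKM in the controls and 26.8 and 31.0 FPKM after knockdown. The minor one, NM_198332, had 3.35 and 0.398 FPKM in the controls and 9.99 and 4.30 FPKM after knockdown. Its share of the STAT2 sum was 27.6% and 3.34% in the controls and 27.2% and 12.2% after knockdown, so the split between the rows varied more between libraries of one group than between the groups. The summed level was much steadier than either row. NM_005419 was the only row of the 8 genes called when rows were tested one by one (log2 fold change 1.43, adjusted p = 0.0236 in limma), and NM_198332 was not (1.63, adjusted p = 0.216). With any 1 of the 4 libraries left out no row of the 8 genes was called.

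The promoter of STAT2 is shown because STAT2 changed most among the 8 genes. The 250 bases before its RefSeq start (GRCh38.p14, chr12:56360108-56360357, minus strand) had a GC content of 67.2%, and the capitals mark 3 matches to the GC box GGGCGG on either strand, a motif found in 45.0% of 35116 RefSeq promoter windows. Each window ran from 250 bases before to 50 after a start site. The STAT2 window held no match to the core of the interferon-stimulated response element (a pair of GAAA blocks with 2 free bases between them, 3.57% of windows), to the STAT-binding GAS motif TTCNNNGAA (7.66%) or to the CEBP-ATF composite TGATGNAA (3.62%).
STAT2: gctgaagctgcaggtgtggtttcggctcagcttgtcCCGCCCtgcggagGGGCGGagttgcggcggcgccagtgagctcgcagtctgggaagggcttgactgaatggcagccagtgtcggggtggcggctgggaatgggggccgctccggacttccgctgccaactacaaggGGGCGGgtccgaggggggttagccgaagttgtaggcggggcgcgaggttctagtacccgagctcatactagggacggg

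Over the 15 promoter windows of the 8 genes, none held the response element core or the GAS motif, 7 held the GC box and 1 of the windows of JAK2 held the CEBP-ATF composite. These are matches of letters only and say nothing of binding.

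IRF9, the DNA-binding partner of STAT2 in ISGF3, had 3.99 and 4.13 FPKM in the controls and 31.4 and 29.9 FPKM after knockdown. The level of IRF9 was below that of STAT2 in every library. Its log2 fold change was 2.64 (standard error 0.08), with 7.55-fold higher FPKM after knockdown. IRF9 is given as the partner of STAT2, although it fell outside the rule for naming genes and was added with its values seen. Its upstream 250 bases (GRCh38.p14, chr14:24161015-24161264, plus strand) are printed for comparison with STAT2, with the single GAS match, which begins at position -63 from the start site, in capitals.
IRF9: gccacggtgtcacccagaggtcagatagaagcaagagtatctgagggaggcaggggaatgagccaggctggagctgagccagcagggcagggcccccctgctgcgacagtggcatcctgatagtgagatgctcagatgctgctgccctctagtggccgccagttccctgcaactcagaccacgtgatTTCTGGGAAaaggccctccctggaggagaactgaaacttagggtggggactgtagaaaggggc

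STAT3 transmits signals of the IL-6 and IL-10 families and of G-CSF. It lies at chr17:42313324-42388442 on the minus strand. STAT3 had 22.2 and 22.5 FPKM in the controls and 26.3 FPKM in both libraries after knockdown, so the knockdown libraries were higher without overlap. The difference was 0.23 on the log2 scale (standard error 0.07, adjusted p = 0.032 in limma), a change of 1.18-fold in mean FPKM. The call was lost without either knockdown library and without sh-NC replicate 1, where the adjusted p reached 0.139 (limma) while the estimate stayed between 0.22 and 0.24.

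Of the 3 RefSeq rows of STAT3, NM_139276 had 14.1 and 14.4 FPKM in the controls and 18.6 and 18.4 FPKM after knockdown. Its share of the gene went from 63.5% and 63.7% to 70.6% and 70.0%. NM_003150, which lacks a serine codon, had 5.79 and 6.48 FPKM in the controls and 5.48 and 6.46 FPKM after knockdown. NM_213662, the row of the shorter beta form with a truncated transactivation domain, had 2.31 and 1.70 FPKM in the controls and 2.27 and 1.43 FPKM after knockdown. The higher sum after knockdown thus lay in NM_139276, while the other rows overlapped between groups. Tested alone, NM_139276 had a log2 fold change of 0.36 and missed the threshold (adjusted p = 0.0591 in limma).

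STAT5A and STAT5B act downstream of IL-3, GM-CSF, erythropoietin, thrombopoietin and FLT3 with an internal tandem duplication. They are close paralogs that can share reads, and how the FPKM program divided such reads is not given in the sources used here. With STAT3 they form a cluster on chromosome 17. STAT5B lies at chr17:42199177-42288370 on the minus strand and STAT5A at chr17:42287439-42311943 on the plus strand, so their RefSeq spans overlap by 932 bases, and the span of STAT3 lies 1.38 kb beyond that of STAT5A. Whether the counting used strand is also not given, so reads from the overlap could have gone to either gene.

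STAT5B had 12.6 and 13.4 FPKM in the controls and 10.1 and 10 FPKM after knockdown. Both knockdown libraries were lower than both controls. The mean after knockdown was 77.6% of the control (log2 fold change -0.34, standard error 0.08, adjusted p = 0.00894 in limma). The call held with each library left out, with estimates from -0.38 to -0.29. STAT5B was listed by a single row, NM_012448.

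STAT5A had 6.10 and 7.75 FPKM in the controls and 7.49 and 7.08 FPKM after knockdown. The groups overlapped, and the log2 fold change of 0.07 had a 95% confidence interval from -0.18 to 0.32 (adjusted p = 0.642 in limma). That interval does not hold the estimate of STAT5B, although the difference between the paralogs was not tested. Without sh-NC replicate 1 the estimate turned to -0.08. Of its 2 rows, NM_001288718 made up 73.2% and 80.2% of the sum in the controls and 93.2% and 87.4% after knockdown. NM_001288719 had 1.64 and 1.53 FPKM in the controls and 0.510 and 0.891 FPKM after knockdown, lower in both knockdown libraries but not called (log2 fold change -0.61, adjusted p = 0.148 in limma).

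STAT6 carries the signals of IL-4 and IL-13. It lies on chromosome 12, as STAT2 does, at chr12:57095408-57111362 on the minus strand, 735 kb away from STAT2. STAT6 had 46.1 and 47.8 FPKM in the controls and 39.6 and 38.9 FPKM after knockdown. Both knockdown libraries were lower, at 83.5% of the control mean (log2 fold change -0.25, standard error 0.07, adjusted p = 0.0165 in limma). Without either knockdown library the call was lost (adjusted p up to 0.122 in limma), with estimates from -0.28 to -0.23 over the 4 libraries left out in turn.

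STAT6 was listed by 5 RefSeq rows. NM_003153 held most of the signal, with 35.9 and 38.4 FPKM in the controls and 27.1 and 31.0 FPKM after knockdown. The non-coding row NR_033659 had 9.31 and 8.44 FPKM in the controls and 11.3 and 6.55 FPKM after knockdown, so its knockdown libraries lay on both sides of the controls. NM_001178078, NM_001178079 and NM_001178081 had less than 1 FPKM in each library, and NM_001178081 was listed at 0 in 1 library of each group. The last 2 of these rows had means under 0.5 FPKM and were not tested. NM_003153 alone was not called (log2 fold change -0.35, adjusted p = 0.102 in limma). Over all 8 genes, 14 of 16 rows were tested and 1 was called, against 8.24% of all 18624 rows tested.

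**Figure D2:**
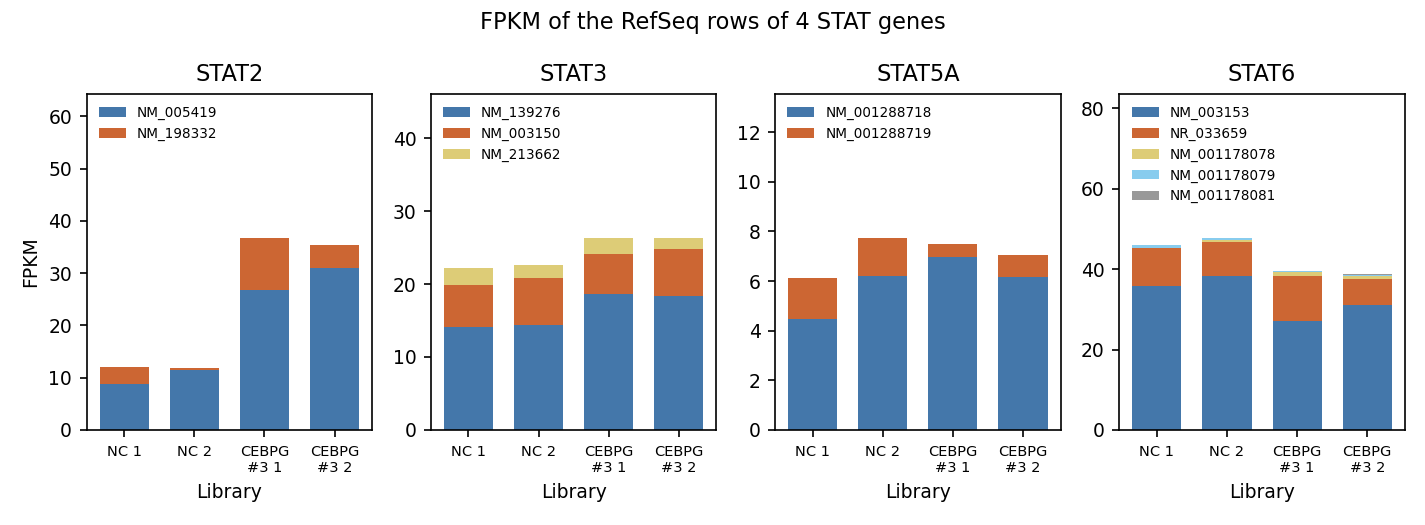
FPKM (y axis, linear, a separate scale for each gene) of the RefSeq rows of STAT2, STAT3, STAT5A and STAT6, stacked for each library, where NC stands for sh-NC and CEBPG#3 for sh-CEBPG#3. The total height of STAT2 is alike within each group although the minor row NM_198332 takes 3.34% to 27.6% of it.

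Of the kinases, JAK1, which serves interferon, IL-2 and IL-6 family receptors, lies at chr1:64833229-65067746 on the minus strand. JAK1 had 15.9 and 17.5 FPKM in the controls and 16.1 and 15.7 FPKM after knockdown. The groups overlapped, and the log2 fold change of -0.07 had a 95% confidence interval from -0.25 to 0.12 (adjusted p = 0.552 in limma).

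TYK2 works with JAK1 at the type I interferon receptor and also serves the IL-10, IL-12 and IL-23 receptors. It lies at chr19:10350533-10380572 on the minus strand. TYK2 had 50.5 and 50 FPKM in the controls and 51.6 and 49.0 FPKM after knockdown, with the controls between the knockdown libraries. The log2 fold change was 0.001, with a 95% confidence interval from -0.16 to 0.16 (adjusted p = 0.992 in limma). TYK2 had the highest level of the 8 genes in both groups.

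JAK2, the kinase of the erythropoietin, thrombopoietin, GM-CSF and IL-3 receptors and a partner of JAK1 at the interferon gamma receptor, lies at chr9:4984390-5129948 on the plus strand. JAK2 had 3.49 FPKM in both controls and 4.86 and 4.52 FPKM after knockdown. Both knockdown libraries were higher, with a mean of 134% of the control (log2 fold change 0.34, standard error 0.10, adjusted p = 0.0184 in limma). The call was lost without sh-CEBPG#3 replicate 1 or without either sh-NC library (adjusted p up to 0.0831 in limma), with estimates of 0.30 to 0.38 over the 4 libraries left out in turn. JAK2 was the lowest of the 8 genes in both groups. JAK1, JAK2, TYK2 and STAT5B were each listed by 1 RefSeq row, whereas RefSeq holds 8, 9, 13 and 1 curated transcripts for them, so changes between isoforms could not be seen for the kinases. The other STAT genes were covered only in part. Rows held 2 of 7 curated transcripts for STAT2, 3 of 21 for STAT3, 2 of 5 for STAT5A and 5 of 6 for STAT6. When single rows were tested, STAT5B had an adjusted p of 0.0886 and JAK2 of 0.159 (limma).

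**Figure D3:**
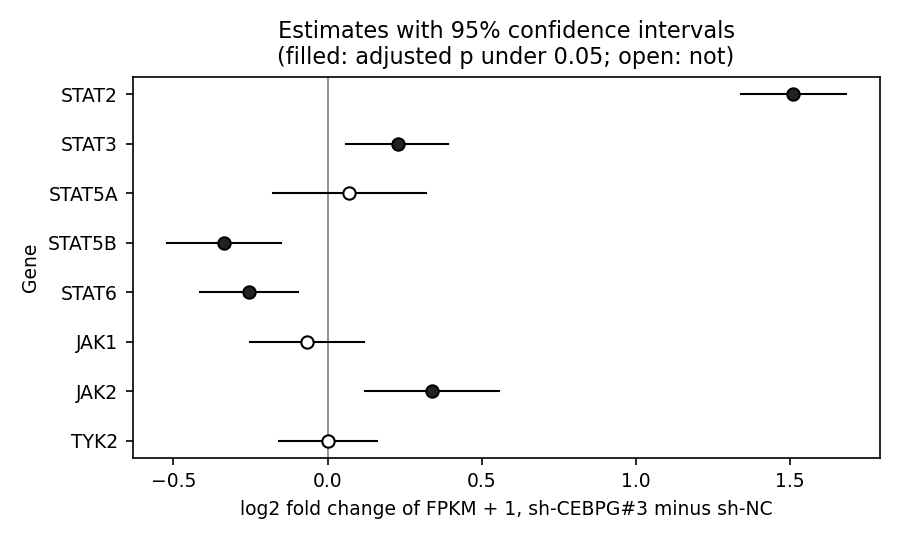
Log2 fold change of FPKM + 1 (x axis, sh-CEBPG#3 minus sh-NC) of each gene, with limma's 95% confidence interval as a line; filled points had an adjusted p under 0.05. The interval of STAT2 runs from 1.34 to 1.68 and lies apart from those of the other 7 genes, which all stay within -0.52 and 0.56.

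The order of the levels changed at a single place. In sh-NC libraries it ran TYK2, STAT6, STAT3, JAK1, STAT5B, STAT2, STAT5A and JAK2, from 50.2 to 3.49 FPKM. After knockdown STAT2 moved from rank 6 to rank 3, behind TYK2 and STAT6 and ahead of STAT3, and the rest kept their order. Neighbours in either order did not overlap in their 2 libraries. Among the 12142 genes tested, the control levels lay between the 29.5 percentile for JAK2 and the 91.5 percentile for TYK2.

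The 5 STAT genes made a sum of 101 ± 3.06 FPKM in the controls and of 119 ± 1.93 FPKM after knockdown (SD, n = 2 each). STAT2 made up 12.2% and 11.5% of that sum in the controls and 30.6% and 30.0% after knockdown. The share of STAT6 went from 46.5% and 46.2% to 32.9% and 33.1%, and that of STAT5B from 12.7% and 13% to 8.42% and 8.54%. STAT3 kept 21.8% to 22.4% in all 4 libraries. Shares of 1 sum are bound to each other, so the lower share of STAT6 holds the increase of STAT2 as well as its own decrease. The 3 kinases made a sum of 70.5 ± 0.786 FPKM in the controls and 70.9 ± 2.33 FPKM after knockdown, and JAK2 went from 5.0% and 4.92% to 6.70% and 6.52% of it.

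**Figure D4:**
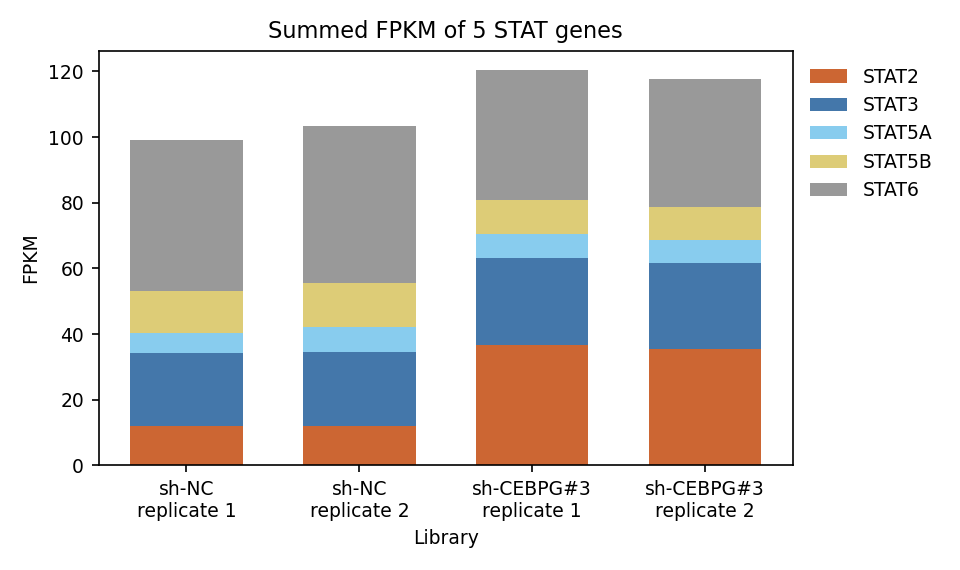
FPKM (y axis, linear) of STAT2, STAT3, STAT5A, STAT5B and STAT6 stacked for each of the 4 libraries. The STAT2 segment at the base grows from about 12 to about 36 FPKM, and the STAT6 segment at the top narrows from 47.0 to 39.2 FPKM in the group means.

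The genes with the pattern nearest to STAT2 were TNFSF13B, VAMP3 and MYBPH. Likeness was the distance between the 4 log2(FPKM + 1) values less the control mean, over 7470 genes that averaged 5 FPKM or more. The distances were 0.047, 0.077 and 0.092. TNFSF13B, the B cell survival factor BAFF, had 11.2 and 11.3 FPKM in the controls and 34.5 and 32.3 FPKM after knockdown. VAMP3, a SNARE protein of endosomes, had 5.36 and 5.71 FPKM in the controls and 17.9 and 17.5 FPKM after knockdown. MYBPH, a myosin-binding protein, had 9.19 and 9.31 FPKM in the controls and 28.3 and 26.0 FPKM after knockdown.

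Upstream of the kinases, 22 of 39 listed receptor chains that couple to JAK kinases could be tested. Of these 13 were called higher and 1 lower, that is 63.6% against 42.2% of all genes, and their median log2 fold change was 0.30. This list and those below were made with earlier results of these data known, so their counts are not independent evidence. IL10RA, the ligand-binding chain of the IL-10 receptor, had 1.97 and 2.50 FPKM in the controls and 9.21 and 8.69 FPKM after knockdown (log2 fold change 1.63). Its partner IL10RB had 16.7 and 18.4 FPKM against 22.7 and 23.0 FPKM (0.36). IL6ST, the shared chain gp130, had 0.903 and 1.08 FPKM against 2.73 and 2.52 FPKM (0.87), and IFNGR2 of the interferon gamma receptor had 9.57 and 7.43 FPKM against 13.2 and 16.1 FPKM (0.72). IL7R was the chain that fell, from 1.20 and 1.53 FPKM to 0.317 and 0.463 FPKM (-0.76). It passed the filter of 0.5 FPKM only through its control libraries. With a filter at 1 FPKM, which left it out, 13 chains were called higher and 0 lower. The median of the list was 0.23 without sh-NC replicate 1 and 0.35 without sh-NC replicate 2. With the replicate block 12 chains were called higher and 2 lower, and with no filter 10 higher and 1 lower of 32.

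The chains of the type I interferon receptor, added with their values seen, differed little between groups. IFNAR1 had 7.08 and 6.81 FPKM in the controls and 7.61 and 6.89 FPKM after knockdown, which overlap. IFNAR2 had 14.5 and 16 FPKM in the controls and 17.8 and 19.6 FPKM after knockdown (log2 fold change 0.28), a call lost without sh-CEBPG#3 replicate 2 (0.21, adjusted p = 0.19 in limma) or sh-NC replicate 1 (0.21, adjusted p = 0.101), with no filter (adjusted p = 0.0744) and without trend (adjusted p = 0.0551). FLT3 itself had 67.6 and 75.0 FPKM in the controls and 66.0 and 62.8 FPKM after knockdown, lower in both but not called (-0.14, adjusted p = 0.161 in limma, with an adjusted p of 0.0136 after scaling to equal totals, 0.0134 after quantile normalization and 0.0284 without sh-NC replicate 1).

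Cytokine ligands were mostly low or without a value here. Of 39 listed, 12 had a row and 6 could be tested, of which 2 were called higher and 3 lower, or 83.3% against 42.2% of all genes. With no filter all 12 were tested, 5 were called against 24.8% of all genes, and their median of -0.42 became 0.04. EBI3, a subunit of IL-27 and IL-35, had 0.180 and 0.347 FPKM in the controls and 8.33 and 7.12 FPKM after knockdown (log2 fold change 2.79). It passed the filter of 0.5 FPKM only through its knockdown libraries. IL23A, the p19 subunit of IL-23, had 3.91 and 4.48 FPKM against 17.2 and 16.8 FPKM (1.79). The lower ligands were FLT3LG, the ligand of FLT3 (2.65 and 2.28 FPKM against 1.10 FPKM in both), CNTF (-0.65) and OSM (-0.63).

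Among the negative regulators, 21 of 22 were tested, and 4 were called higher and 3 lower, or 33.3% against 42.2% of all genes, with a median of -0.004. The higher ones were USP18, PTPN6, SH2B3 and CBL. USP18, which blocks type I interferon signalling at IFNAR2, had 2.57 and 3.02 FPKM in the controls and 16.6 and 15.9 FPKM after knockdown (log2 fold change 2.19). The phosphatase PTPN6 (SHP-1) had 94.1 and 99.5 FPKM against 116 and 112 FPKM (0.23), and the adaptor SH2B3, which restrains JAK2, had 21.4 and 24.1 FPKM against 29.8 and 27.3 FPKM (0.32). The ubiquitin ligase CBL had a log2 fold change of 0.46.

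The lower ones were CISH, SOCS1 and SOCS2, feedback inhibitors that STAT5 is known to induce. CISH had 19.5 and 19.7 FPKM in the controls and 12.4 FPKM in both libraries after knockdown (log2 fold change -0.63, standard error 0.08, adjusted p = 0.000167 in limma). SOCS1 had 16.5 and 16.8 FPKM against 12.1 and 12.2 FPKM (-0.43). SOCS2 had 52.9 and 55.9 FPKM against 44.4 and 44.0 FPKM (-0.29). In all 3 the knockdown libraries lay below the controls. SOCS3, which STAT3 induces and which was added with its values seen, had 2.17 and 2.40 FPKM against 2.65 and 2.25 FPKM and was not called. Without sh-CEBPG#3 replicate 1 the calls of this list went from 7 to 4, and PTPN6 (0.21), SH2B3 (0.26) and SOCS2 (-0.30) were no longer called. PTPN6 (0.26) and SOCS2 (-0.29) were also not called without sh-CEBPG#3 replicate 2.

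The CISH promoter is shown because its clustered STAT5 sites are well known. The 250 bases before its start (GRCh38.p14, chr3:50611775-50612024, minus strand) held 4 matches to the GAS motif, in capitals, beginning at positions -241, -230, -129 and -112 from the start site. The promoter window of SOCS1 held no match to the GAS motif. It held 1 match to the core of the interferon-stimulated response element, beginning at position -113.
CISH: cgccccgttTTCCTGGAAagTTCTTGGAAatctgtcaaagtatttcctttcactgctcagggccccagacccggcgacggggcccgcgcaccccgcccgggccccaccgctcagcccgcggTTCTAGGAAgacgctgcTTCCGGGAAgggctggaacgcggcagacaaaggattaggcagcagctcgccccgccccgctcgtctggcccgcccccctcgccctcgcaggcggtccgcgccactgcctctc

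The target genes of each STAT factor were described next. Of 35 tested genes of the IRF9 and ISGF3 list, 34 were called higher, or 97.1% called against 42.2% of all genes, and the median log2 fold change was 2.26. Since these interferon-induced genes were known to be higher in these libraries when the list was made, the count is not independent evidence. Their levels after knockdown reached 271 and 264 FPKM for IFI6 (1.99 and 2.07 FPKM in the controls) and 324 and 306 FPKM for the antiviral membrane protein BST2 (47.5 and 53.3 FPKM). OAS2 (log2 fold change 4.43) and OAS1 (4.25), which make the activator of RNase L, came next in size after IFI6, followed by IFIT3 (4.22), which acts with other IFIT proteins on viral RNA. The ubiquitin-like protein ISG15 (4.10), the membrane protein IFITM1 (2.26), IFI35 (1.68) and XAF1 (0.93) also averaged 20 FPKM or more. IRF1, the gene of the list that was not called, had 8.59 and 8.38 FPKM in the controls and 9.36 and 9.29 FPKM after knockdown. USP18 is on this list and was also counted among the negative regulators.

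Of 16 tested STAT5 target genes, 9 were called lower and 4 higher, or 81.2% against 42.2% of all genes, and the median was -0.36. Of the lower genes, CISH, SOCS1 and SOCS2 were also counted among the negative regulators and OSM among the ligands. These counts are therefore not separate. PIM1, a survival kinase, had 58.5 and 60.9 FPKM in the controls and 21.4 and 19.6 FPKM after knockdown (log2 fold change -1.50). MYC had 217 and 249 FPKM against 140 and 136 FPKM (-0.75). DUSP6, a phosphatase that is also an output of ERK, had 13 and 13.9 FPKM against 4.95 and 5.33 FPKM (-1.24), and ID1 had a log2 fold change of -1.13. The 4 higher genes were BCL2L1, BCL6, CCND2 and MCL1, but only 2 of the list were called higher without either knockdown library or without sh-NC replicate 1. MCL1, an anti-apoptotic protein, had 43.1 and 44.9 FPKM against 62.2 and 61.6 FPKM (0.48). PIM2, CCND3 and SPRED1 were not called, although CCND3 (-0.10) passed with equal totals (-0.12, adjusted p = 0.0486 in limma) and quantile normalization (-0.19, adjusted p = 0.00614).

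Of 17 tested STAT3 target genes, 11 were called higher and 4 lower (88.2% against 42.2%), with a median of 0.31. BCL3 had 2.15 and 2.81 FPKM in the controls and 6.74 and 5.82 FPKM after knockdown (log2 fold change 1.07). CEBPD had 21.1 and 24.1 FPKM against 39.5 and 38.6 FPKM (0.76), CEBPB 15.3 and 14.9 FPKM against 26.2 and 24.2 FPKM (0.70), and JUNB 53.9 and 52.2 FPKM against 87.8 and 79.9 FPKM (0.65). LRG1 (0.41) and TIMP1 (0.24) were also higher, TIMP1 not past the threshold without either knockdown library (0.23 and 0.26). The lower genes were PIM1, MYC, CCND1 and BIRC5, of which the first 3 are also on the STAT5 list. The lists of STAT3 and STAT5 targets share 5 genes in all, so their counts are not separate.

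Of 16 listed STAT6 target genes, 12 had a row and 6 could be tested. All 6 were called, 4 higher and 2 lower, against 42.2% of all genes, with a median of 0.71. CCL23 passed the filter of 0.5 FPKM only through its knockdown libraries. With no filter 8 of 12 were called, 6 higher and 2 lower, against 24.8% of all genes. With so few genes the median hung on the settings: it was 0.31 with a filter at 1 FPKM, 0.21 with no filter and 1.18 with a pseudocount of 0.01. FCER2, the low-affinity IgE receptor CD23 that IL-4 induces, had 12.9 and 14.8 FPKM in the controls and 101 and 99.2 FPKM after knockdown (log2 fold change 2.77). CD209, the lectin DC-SIGN, had 2.27 and 2.66 FPKM against 10.3 and 9.85 FPKM (1.67). CCL23 had 0.236 and 0.132 FPKM against 1.87 and 1.30 FPKM (1.12), and IL4R, a chain of the IL-4 receptor, 11.6 and 12.6 FPKM against 15.4 and 14.9 FPKM (0.31). The call of IL4R was lost without sh-CEBPG#3 replicate 1 (0.28) or sh-NC replicate 1 (0.25). The lower genes were CISH and SOCS1, which also stand on the STAT5 list and among the negative regulators. IL4R is also on the receptor and STAT3 lists. The higher genes moved opposite to the mRNA of STAT6, which fell by 0.25 on the log2 scale, while CISH and SOCS1 fell too. Whether any of these changes is linked to STAT6 was not tested.

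**Figure D5:**
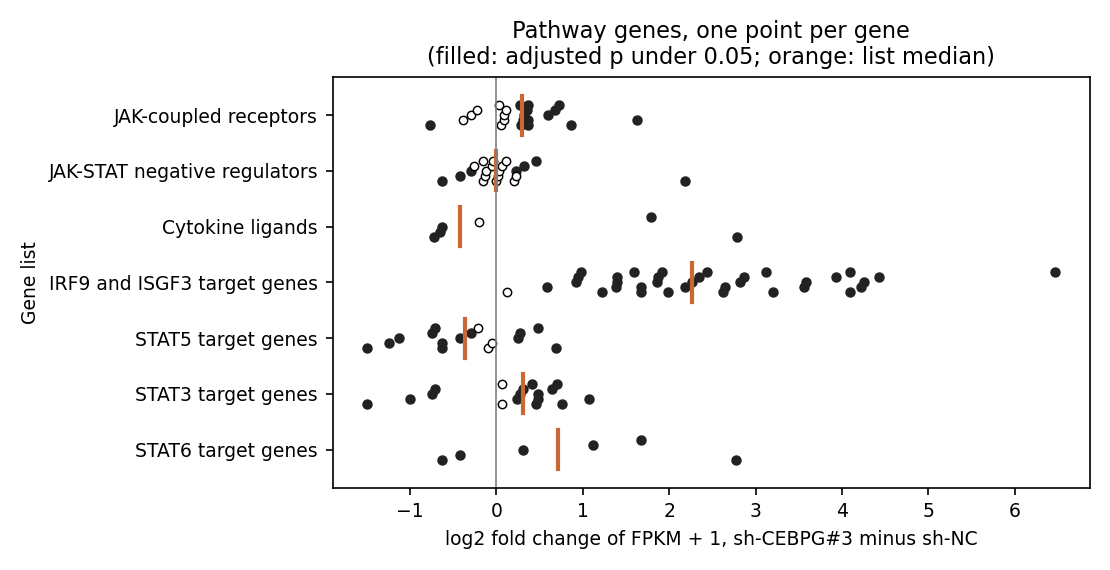
Log2 fold change of FPKM + 1 (x axis, sh-CEBPG#3 minus sh-NC) of every tested gene in 7 lists, 1 point per gene and list; filled points had an adjusted p under 0.05 and the orange line is the list median. The IRF9 and ISGF3 targets lie to the right, with IFI6 at 6.47, and the STAT5 targets have a median of -0.36.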

How the data were processed

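RNA-seq libraries of MV4-11 cells were analysed, 2 with sh-NC and 2 with sh-CEBPG#3. Per the methods, reads were cleaned and aligned with HISAT (HISAT2 2.0.5 and hg38 in the submitters' processing notes), and the authors deposited 1 FPKM column per library over RefSeq transcripts; the FPKM program and annotation release are not given in the sources used here. Of 28780 rows, 199 had no value. FPKM was summed by symbol, and 12142 genes averaging 0.5 FPKM or more were fitted on log2(FPKM + 1) with limma 3.58.1 in R 4.3.3 (eBayes with trend, no block), with Benjamini-Hochberg adjustment over all of them. Rows were fitted likewise. The authors' DESeq2 test needs counts and was not run. Depth is unknown: at most 0.487% of low rows shared one ratio between libraries, so no steps of whole reads were seen. An exact two-sided permutation test of 2 against 2 libraries cannot go below p = 0.333, and p-values measure the spread between libraries, which may be technical.

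The members and lists were chosen with earlier results of these data known. Named genes were the 8 members with their rows, CEBPG, FLT3, the 4 largest called changes of each list, called list genes averaging 20 FPKM or more, and the 3 genes nearest to STAT2; genes outside this rule are marked, or are members of a count of 5 or fewer. Other STAT and JAK genes, which this rule would name, are not reported here. Promoters are from RefSeq (GRCh38.p14), matched by symbol for all 8 genes. The fit was tested on simulated data. As alternatives, the pseudocount was set to 0.1 or 0.01, the filter was dropped or raised to 1 FPKM, libraries were quantile-normalized or scaled to equal totals, and the fit was repeated with a replicate block, without trend, with the most abundant row and with each library left out in turn.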

Additional observations from a re-analysis of the deposited data

How the results depend on the processing

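STAT2 and STAT5B kept their direction and their call under every alternative run, while the calls of STAT3, STAT6 and JAK2 did not. CEBPG also kept both in the alternatives run for it, which leave out the fit of the most abundant row. STAT3 (0.23) missed 0.05 without trend (0.23, adjusted p = 0.0645 in limma) and with the replicate block (0.23, adjusted p = 0.123). STAT6 missed it with the block (-0.25, adjusted p = 0.0797) and for its most abundant row (-0.35, adjusted p = 0.0526). JAK2 missed it without a filter (0.34, adjusted p = 0.0563) and for the fit of the most abundant rows (0.34, adjusted p = 0.0756). TYK2 turned sign to -0.025 with equal totals and -0.027 with quantile normalization. With each library left out the estimates were 1.48 to 1.54 for STAT2, 0.22 to 0.24 for STAT3, -0.08 to 0.22 for STAT5A, -0.38 to -0.29 for STAT5B, -0.28 to -0.23 for STAT6, -0.13 to -0.001 for JAK1, 0.30 to 0.38 for JAK2, -0.035 to 0.037 for TYK2 and -0.87 to -0.70 for CEBPG. The single library left in a group was then assumed to vary like the others.

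Of the 8 genes, 5 were called, 3 with the replicate block and 2 to 4 with a library left out, where 39.2% and 31.9% to 41.2% of all genes were called. Deviations from the group mean correlated at 0.061 between libraries of the same number, so the numbers were not taken as pairs. Of the rows, 1 was called, 3 with equal totals, 2 with quantile normalization, 0 without trend and 0 with each library left out; in limma 6 rows had an unadjusted p under 0.05, 5 without trend and 2 to 5 with a library left out. With a library left out the negative regulators gave 4 to 7 calls. The other 6 lists kept a total of calls within 1.5 times under every alternative run, but the STAT5 targets called higher went from 4 to 2 with the block, with no filter and without 3 of the 4 libraries. With the block IFNAR2 (adjusted p = 0.0522), PTPN6 (adjusted p = 0.117) and TIMP1 (adjusted p = 0.0956) were not called in limma; without trend PTPN6 (adjusted p = 0.0686) and TIMP1 (adjusted p = 0.0595) were not either, nor was SH2B3 with no filter (adjusted p = 0.0562). The sign of 3 uncalled genes also turned with a library left out: IFNAR1 (-0.010 to 0.117), PIM2 (-0.146 to 0.040, with 0.012 without sh-NC replicate 2) and SOCS3 (-0.013 to 0.154). The median of all genes lay between -0.072 and -0.005 in all settings. What caused them was not tested. Without counts, low genes could not be weighted by depth.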
